A study of Mus musculus with 4 samples.

Results

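The 7 genes described here are the colony stimulating factors Csf2, Csf1 and Csf3, and 4 chains of the receptors for GM-CSF and interleukin 3, namely Csf2ra, Il3ra, Csf2rb and Csf2rb2. They were followed in Py2T cells, an epithelial mouse breast cancer line derived from a mammary tumour of an MMTV-PyMT transgenic animal. The treated arrays carry RNA from cells that received 2 ng/ml TGFβ for 5 days (2 arrays, named biological replicates 1 and 2), and the controls come from cells left untreated (2 arrays, likewise numbered 1 and 2), all in medium with serum. The 7 genes were chosen by family, out of 19938 genes represented by 1 probe set each, and the family was selected on the TGFβ difference of Csf2rb2 and its relatives on these same arrays. Each of the 7 has 1 probe set that is assigned to its gene symbol alone, and probe sets assigned to several symbols were not read for these genes. Because the same comparison entered the choice, the values and differences of the 7 genes are given as a description, and no test of them is read.

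Colony stimulating factors are secreted proteins that drive the survival and growth of myeloid blood cells, and tumour cells can release them. GM-CSF (Csf2) binds an alpha chain, Csf2ra, that pairs with the common beta chain Csf2rb, and interleukin 3 uses the alpha chain Il3ra with the same beta chain. Mice have an additional beta chain, Csf2rb2, which lies beside Csf2rb, is close to it in sequence and serves interleukin 3 but not GM-CSF. M-CSF (Csf1) and G-CSF (Csf3) act through receptors of their own, Csf1r and Csf3r.

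Values are RMA expression values on the log2 scale, on which 1 unit is a 2-fold difference, and they can be compared between arrays but not between genes. No detection calls came with them, so the bottom of the range was described with 1194 olfactory and vomeronasal receptor genes, which most cells outside sensory epithelia do not express. Their mean values had a median of 4.63, a 95th percentile of 5.98 and a 99th percentile of 6.79. A gene under 5.98 in both groups is called dim below. RNA of whole cultures was measured, so a smaller share of expressing cells and less RNA per cell cannot be told apart.

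Among the ligands, GM-CSF was higher and G-CSF lower after TGFβ, while M-CSF varied as much between arrays of 1 group as between the groups. Csf2 read 10.77 and 11.16 on the TGFβ arrays, against 8.55 and 8.67 on the untreated arrays. Both TGFβ arrays lay above both untreated arrays, by at least 2.10. The difference was 2.35 ± 0.14 (log2, SE of the fit, n = 2 each), or 5.11-fold, with a 95% interval of 4.03-fold to 6.48-fold. In the order of all genes by difference, 51 had a larger rise than Csf2.

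Csf1, the macrophage growth factor, read 11.09 and 10.63 on the TGFβ arrays and 10.75 and 10.36 on the untreated arrays. The groups overlapped, since untreated replicate 1 lay above TGFβ replicate 2. Its mean difference of 0.30 ± 0.19 was smaller than the gap of 0.46 between the 2 TGFβ arrays, and the 95% interval ran from -0.16 to 0.77. Csf3, the granulocyte growth factor, read 7.65 and 7.97 on the TGFβ arrays, against 8.43 and 8.46 on the untreated arrays. Both TGFβ arrays were the lower ones, with a difference of -0.63 ± 0.12, or 1.55-fold, and a 95% interval of -0.92 to -0.34. The size differed between the TGFβ arrays, at -0.79 for replicate 1 and -0.47 for replicate 2 against the untreated mean.

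Of the 4 receptor chains, Csf2rb2 was far lower after TGFβ and the other three differed by less than 0.25 on the log2 scale. Csf2rb2 read 6.62 and 6.67 on the TGFβ arrays, against 10.72 and 10.33 on the untreated arrays. The groups were 3.66 apart at their nearest points, while the largest gap between arrays of 1 group was 0.39. Its difference of -3.88 ± 0.14 was 14.7-fold, with a 95% interval of 11.7-fold to 18.6-fold, and 0 of the 19938 genes had a larger fall. On the TGFβ arrays its mean of 6.64 ± 0.04 (SD, n = 2) lay under the 99th percentile of the olfactory and vomeronasal genes, so background limits the fold.

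Csf2rb, the common beta chain, read 6.07 and 5.96 on the TGFβ arrays and 6.31 and 6.16 on the untreated arrays. All 4 values lay under the 99th percentile of the olfactory and vomeronasal genes (6.79), where background can hide part of a fall. Csf2rb was not dim, and its untreated mean of 6.24 was at or above 96.98% of those genes. The difference was -0.22 ± 0.09 (95% interval -0.44 to 0.00096). The beta chains are alike in sequence, and whether either probe set also reads the other gene was not tested. On the untreated arrays the Csf2rb probe set read 6.31 and 6.16 and the Csf2rb2 probe set 10.72 and 10.33. Such heights cannot be compared between genes. Csf2ra, the GM-CSF alpha chain, read 7.23 and 7.24 on the TGFβ arrays and 7.44 and 7.35 on the untreated arrays. Its difference was -0.16 ± 0.08 (95% interval -0.35 to 0.03), with both TGFβ arrays the lower ones. Il3ra, the interleukin 3 alpha chain, read 7.33 and 7.43 on the TGFβ arrays and 7.34 and 7.48 on the untreated arrays. These values overlapped, with a difference of -0.03 ± 0.09 and a 95% interval of -0.25 to 0.19.

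**Figure D1:**
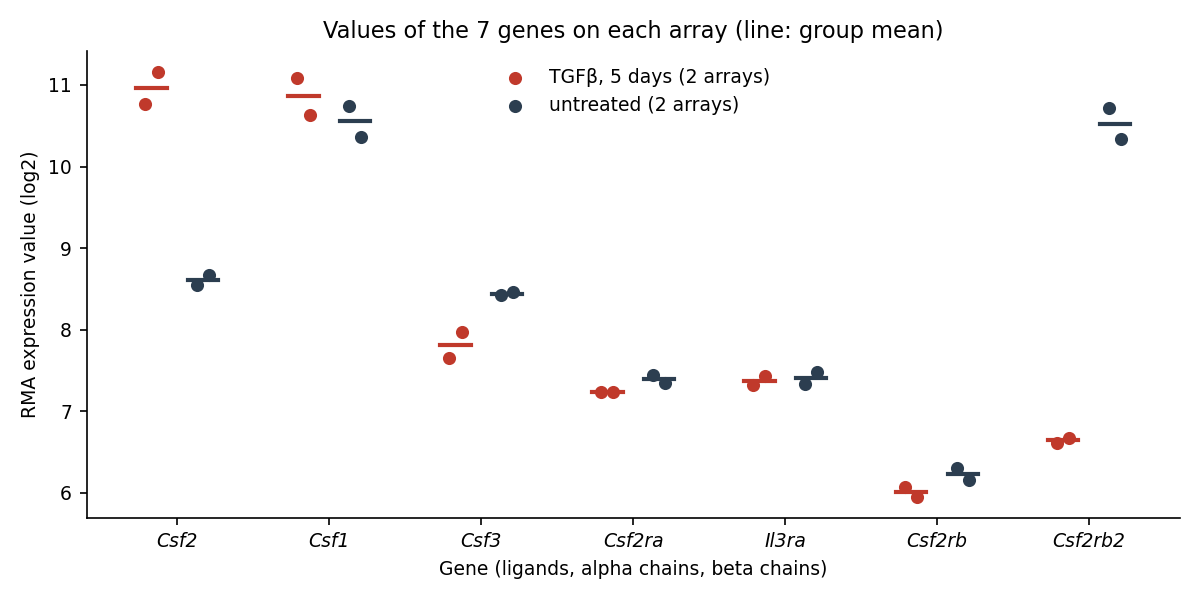
RMA expression value (log2, vertical axis) of each of the 7 genes on every array, with the 2 TGFβ arrays left of the 2 untreated arrays and a line at each group mean. Csf2 stood higher on both TGFβ arrays and Csf2rb2 lower, while the values of Csf1 and of Il3ra overlapped; heights are not comparable between genes.

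In the fit across all genes 3 of the 7 passed at an adjusted p under 0.05, Csf2 as higher and Csf2rb2 and Csf3 as lower, where 13.6% of all genes passed. The rule for the 7 genes used this comparison, so nothing is read from that count. Csf2 and Csf2rb2 also differed at least 2-fold, which 3.4% of all genes did while passing. The 2 TGFβ and 2 untreated arrays did not overlap for 5 of the 7 genes, a state shared by 52.6% of all genes. The 7 differences had a median of -0.16, beside 0.0097 over all genes, with 2 positive and 5 negative.

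Leaving out any 1 array kept Csf2 between 2.16 and 2.55 and Csf2rb2 between -4.08 and -3.69. Csf3 lay between -0.79 and -0.47, and it no longer passed without untreated replicate 1 (-0.65) or untreated replicate 2 (-0.61). Csf1 lay between 0.08 and 0.53, with 0.08 without TGFβ replicate 1. Il3ra changed sign, at 0.018 without TGFβ replicate 1 and 0.042 without untreated replicate 2.

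**Figure D2:**
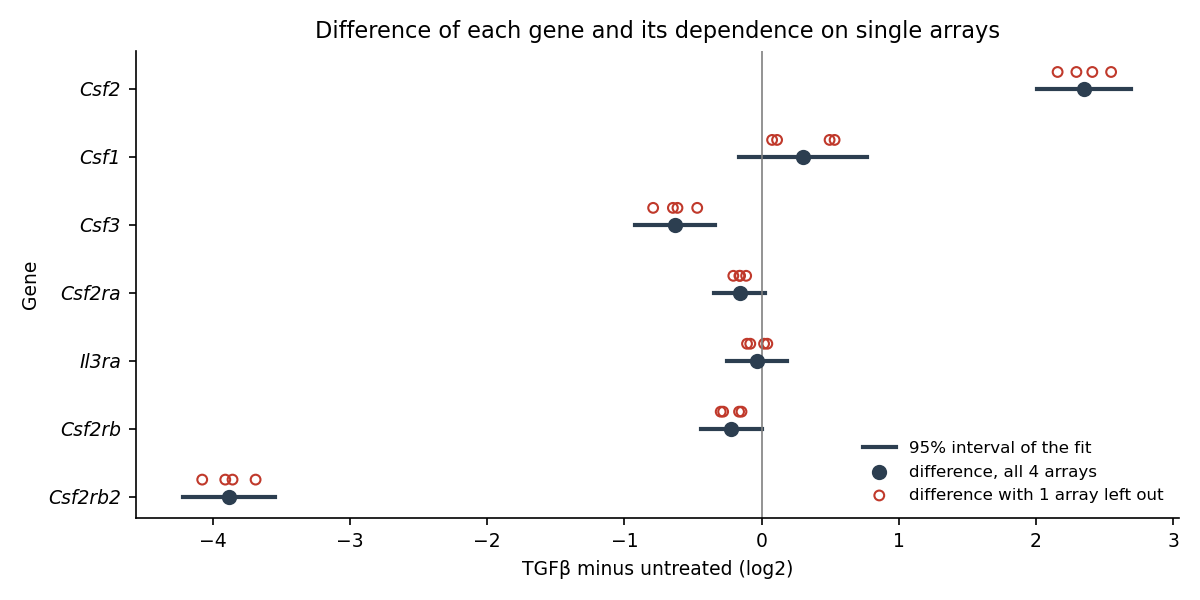
Difference between TGFβ and untreated arrays (log2, horizontal axis) of the 7 genes, with a filled point and 95% interval from all 4 arrays and open points for the fits with 1 array left out. Csf2 at 2.35 and Csf2rb2 at -3.88 stand apart from 0 in every fit, and Il3ra lies on both sides of 0.

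The stretches upstream of the start of Csf2 and Csf2rb2 are shown because these 2 genes had the largest differences, in opposite directions. They are the 250 bases before the RefSeq start on build GRCm38.p6, written 5′ to 3′ on the strand of the gene, and the start used in these cells is not known from the arrays. Windows were found for 5 of the 7 genes, and Csf2rb and Csf3 had none in the table. Capitals mark matches, on either strand, to CAGGTG (the E2-box of Zeb and Snail repressors), GGAATG (the MCAT motif of TEAD factors), CAGAC (the Smad box) and TGANTCA (AP-1).
Csf2, chr11:54249900-54250149, minus strand: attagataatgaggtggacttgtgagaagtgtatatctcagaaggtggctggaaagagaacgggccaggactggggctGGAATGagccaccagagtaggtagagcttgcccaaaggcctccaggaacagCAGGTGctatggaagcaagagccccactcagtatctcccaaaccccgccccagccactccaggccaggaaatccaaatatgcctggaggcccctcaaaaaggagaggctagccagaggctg
Csf2rb2, chr15:78305722-78305971, minus strand: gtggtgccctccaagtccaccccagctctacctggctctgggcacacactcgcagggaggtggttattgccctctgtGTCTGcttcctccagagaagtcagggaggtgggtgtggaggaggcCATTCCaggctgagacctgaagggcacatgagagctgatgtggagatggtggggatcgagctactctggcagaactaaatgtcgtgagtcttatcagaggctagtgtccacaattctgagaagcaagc

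The Csf2 window held 1 MCAT match, which begins 172 bases before the start, and 1 E2-box match, 121 bases before it. The Csf2rb2 window held 1 MCAT match, 128 bases before the start, and 1 Smad box match, 173 bases before it, both on the opposite strand. No marked matches overlapped each other. Of 32851 RefSeq windows of the same length 12.6% held an MCAT match, 17.2% an E2-box, 42.2% a Smad box and 6.75% an AP-1 match. The Csf2 window held no Smad box match. The Csf1 and Csf2ra windows held no match to any of the 4 motifs. The Il3ra window held 1 Smad box match, 34 bases before the start, and no other match. A match is only a run of letters, and no binding was measured.

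The genes most like Csf2 over the 4 arrays were Npr3, a natriuretic peptide receptor, Tmprss11b, a membrane serine protease, and Pde2a, a cyclic nucleotide phosphodiesterase. Likeness is the Euclidean distance between the 4 values after each gene is centred on its untreated mean, and these lay 0.156, 0.2005 and 0.262 log2 units from Csf2. Npr3 read 10.90 and 11.48 on the TGFβ arrays, against 8.76 and 8.82 on the untreated arrays. The genes nearest to Csf2rb2 were Mal2, a protein of apical transport, Ephx1, an epoxide hydrolase, and Sorbs2, an actin-binding adaptor, at distances of 0.231, 0.576 and 0.655. Mal2 read 5.57 and 5.61 on the TGFβ arrays, against 9.55 and 9.08 on the untreated arrays. With 4 arrays in 2 groups, such likeness rests mainly on the size of the difference.

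The remaining ligands and receptors of the same systems did not pass in limma, with 0 of 6 called at an adjusted p under 0.05 and 0 at an unadjusted p under 0.05. Over all genes 13.6% were called. Il3, interleukin 3 itself, was dim at 4.48 and 4.56 on the TGFβ arrays and 4.35 and 4.37 on the untreated arrays. Il5 (difference -0.04), its receptor chain Il5ra (-0.04) and the G-CSF receptor Csf3r (0.02) were dim as well, and Csf3r changed sign without TGFβ replicate 2 (-0.16) or untreated replicate 1 (-0.00057). Il34, the other ligand of the M-CSF receptor, differed by -0.07 (95% interval -0.26 to 0.12). Csf1r, the M-CSF receptor, read 7.08 and 7.27 on the TGFβ arrays, against 7.90 and 7.35 on the untreated arrays, with a difference of -0.45 ± 0.19 (adjusted p = 0.204). Without untreated replicate 2 it was -0.72 and passed (adjusted p = 0.0267), a change that rests on untreated replicate 1.

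Among 23 measured class I cytokine receptors outside the 7 genes, 1 rose, 3 fell and 19 did not pass, where 6.49% of all genes rose and 7.15% fell. Cntfr, the receptor of ciliary neurotrophic factor, read 8.10 and 7.30 on the TGFβ arrays, against 9.69 and 9.81 on the untreated arrays, and fell by 2.05 on the log2 scale (adjusted p = 0.00555). Il6st, the shared gp130 chain, fell by 0.60 (adjusted p = 0.00597), and Osmr, the oncostatin M receptor, fell by 0.36 (adjusted p = 0.0429). Epor, the erythropoietin receptor, rose by 0.53 (adjusted p = 0.00763). Osmr did not pass in any fit with 1 array left out (-0.43 to -0.29). The list median was 0.02, and 10 of the 23 genes were dim.

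Of 19 measured haematopoietic growth factors and interleukins other than the colony stimulating factors, 1 rose, 2 fell and 16 did not pass. This was 15.8% called, against 13.6% of all genes, with a median of 0.05 and 11 dim genes. Kitl, stem cell factor, read 6.86 and 7.24 on the TGFβ arrays, against 9.57 and 9.36 on the untreated arrays, a fall of 5.32-fold (adjusted p = 0.000682). Il7, a lymphocyte growth factor, fell by 0.69 (adjusted p = 0.0157) near the bottom of the range, a call lost without TGFβ replicate 1 (-0.63). Il11, which signals through gp130, rose by 5.23 (adjusted p = 0.000255).

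The kinases, STATs and adaptors that act behind the beta chains moved in both directions. Of 22 measured, 4 rose, 3 fell and 15 did not pass, with a median of 0.05. This was 31.8% called, against 13.6% of all genes. Gab2, a docking adaptor phosphorylated after beta-chain activation, read 10.10 and 10.25 on the TGFβ arrays, against 8.77 and 8.32 on the untreated arrays, and rose 3.10-fold (adjusted p = 0.0026). The Src family kinase Fyn rose 2.98-fold (adjusted p = 0.000523) and the ubiquitin ligase Cbl, which marks activated receptors for degradation, rose 1.77-fold (adjusted p = 0.0123). Pik3r1, the regulatory subunit of PI3 kinase, fell by 0.72, Stat6 by 0.47 and the inositol phosphatase Inpp5d by 0.46. Without untreated replicate 1 or 2 the Stat6 call (-0.46 and -0.48) and the Inpp5d call (-0.49 and -0.43) were lost, and Inpp5d also did not pass without TGFβ replicate 1 (-0.36). The list had 4 calls without untreated replicate 1 or 2, against 7 from all 4 arrays. Jak2, the kinase bound to the beta chain, differed by 0.28, Stat5a by -0.25 and Stat5b by -0.19 without passing.

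Of 10 genes that STAT5 induces in cytokine-treated blood cells 3 rose, 2 fell and 5 did not pass (median 0.08). The kinase Pim1 rose by 1.06 (adjusted p = 0.00878), whereas the suppressor Socs2 fell by 0.96 (adjusted p = 0.00243) and the survival gene Bcl2l1 fell by 0.79 (adjusted p = 0.0105). Cish rose by 0.37 and Socs3 by 0.49, with adjusted p of 0.0311 and 0.0490. Cish did not pass in any fit with 1 array left out (0.32 to 0.43), and Socs3 did not pass without TGFβ replicate 1 (0.38), untreated replicate 1 (0.38) or untreated replicate 2 (0.61), nor with the mean of its probe sets (0.30). The list had 3 calls in each of the fits without TGFβ replicate 1, untreated replicate 1 or untreated replicate 2, and 3 with the replicate number as a block, against 5 from all 4 arrays.

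Few factors that control colony stimulating factor genes were called, and neither fall kept its call with 1 array left out. The list holds transcription factors and Nfkbia, an inhibitor of NF-κB. Of 20 measured, 2 rose, 2 fell and 16 did not pass (median -0.11), or 20.0% called against 13.6% of all genes. Junb, an AP-1 subunit, rose by 0.96 (adjusted p = 0.00632), and Nfatc2, which activates the GM-CSF gene in T cells, rose by 0.95 (adjusted p = 0.0208), a call lost without untreated replicate 1 (0.97) or 2 (0.94). Fosl2 fell by 0.41 and Nfkbia, the NF-κB inhibitor, by 0.31, and each lost its call without any 1 of the 4 arrays (-0.51 to -0.31 for Fosl2, -0.34 to -0.28 for Nfkbia). The list then had 1 call without untreated replicate 2 and 2 calls without each of the other arrays. Of 10 proteins that bind cytokine mRNAs 1 fell and 9 did not pass, or 10.0% called against 13.6% of all genes. The 1 that fell was Zfp36, tristetraprolin, which speeds the decay of GM-CSF mRNA and other mRNAs with AU-rich elements. Zfp36 read 7.59 and 7.84 on the TGFβ arrays, against 8.45 and 8.55 on the untreated arrays, a fall of 0.78 (adjusted p = 0.00826).

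Of 12 measured inducers, the interleukin 1, interleukin 17, TNF and Toll-like receptor routes, 0 rose, 1 fell and 11 did not pass. This was 8.33% called, against 13.6% of all genes. The lipopolysaccharide receptor Tlr4 fell by 1.16 (adjusted p = 0.0359), a call lost without untreated replicate 1 (-0.99) or 2 (-1.32), and 2 of the 12 passed without TGFβ replicate 2. Over all 8 lists 116 distinct genes were measured, and 11 rose, 14 fell and 91 did not pass, or 21.6% called against 13.6% of all genes. Their median difference was 0.0094, beside 0.0097 over all genes. Without the dimmest 25% of genes, 23 of 95 list genes and 2758 of 14953 genes in all were called. How far brightness accounts for the larger share in the lists was not tested. Of the 25 called, 14 were called in each of the 4 fits with 1 array left out, 7 higher and 7 lower.

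**Figure D3:**
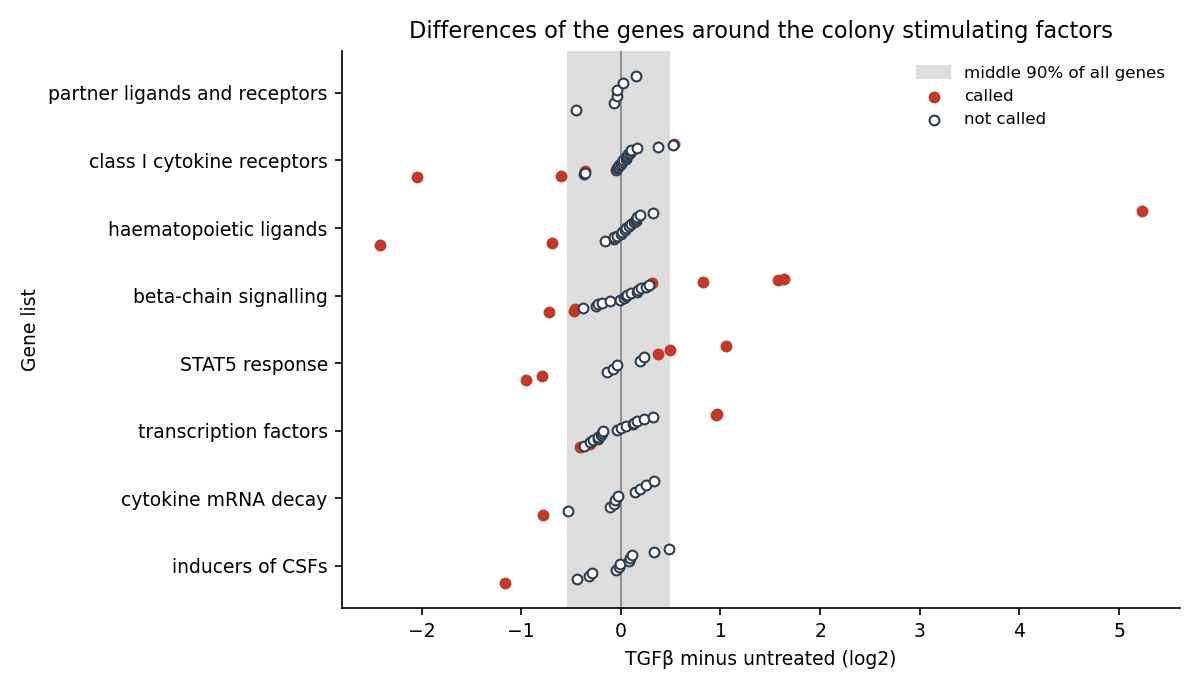
Difference between TGFβ and untreated arrays (log2, horizontal axis) of every measured gene in 8 lists, with filled points for genes called in limma at an adjusted p under 0.05 and a grey band for the middle 90% of all genes (-0.53 to 0.49). Most genes lie in the band, Il11 is the point at 5.23, and Kitl and Cntfr are the points beyond -2.

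Genes next to Csf2 and Csf2rb2 on their chromosomes were read to see whether the surroundings moved as well. Of the 5 measured genes on each side of Csf2, 4 rose and 0 fell, where 6.49% of all genes rose and 7.15% fell. Its neighbour P4ha2, a collagen prolyl hydroxylase subunit, rose by 0.96 (adjusted p = 0.00426), and Acsl6, an acyl-CoA synthetase on the far side of Il3, rose by 0.94 (adjusted p = 0.00665). The carnitine and organic cation transporters Slc22a21 and Slc22a4 rose by 0.57 and 0.40. Slc22a21 was not called without TGFβ replicate 1 (0.46) or untreated replicate 1 (0.52), and Slc22a4 was not called without any 1 of the 4 arrays (0.33 to 0.47). Il3, which lies directly beside Csf2, was dim in both groups.

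None of the 5 measured genes on either side of Csf2rb2 was called in limma. Csf2rb and Ncf4, a subunit of the phagocyte oxidase, lie directly beside it, and of the 9 neighbours other than Csf2rb 2 had an unadjusted p under 0.05. Ncf4 was dim and differed by 0.01, changing sign without TGFβ replicate 2 (-0.04) or untreated replicate 2 (-0.07). Around the other members, Ahcyl1 beside Csf1 fell by 0.44 (adjusted p = 0.0195) and the clock gene Nr1d1 near Csf3 rose by 0.54 (adjusted p = 0.0414). Ahcyl1 kept its call only without TGFβ replicate 1 and Nr1d1 only without TGFβ replicate 2, at 0.70. The nearest genes of the remaining members, Gm7102 (Csf2ra), Olfr31 and Nek10 (Il3ra), Tex33 (Csf2rb), Eps8l3 (Csf1) and Psmd3 and Med24 (Csf3), differed by 0.0044 to 0.14. Of 55 distinct neighbours 5 rose, 1 fell and 49 did not pass, or 10.9% called against 13.6% of all genes. Neighbours had 3 calls without TGFβ replicate 1 and 2 without untreated replicate 1. Whether the neighbourhoods of Csf2 and Csf2rb2 differ was not tested.

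**Figure D4:**
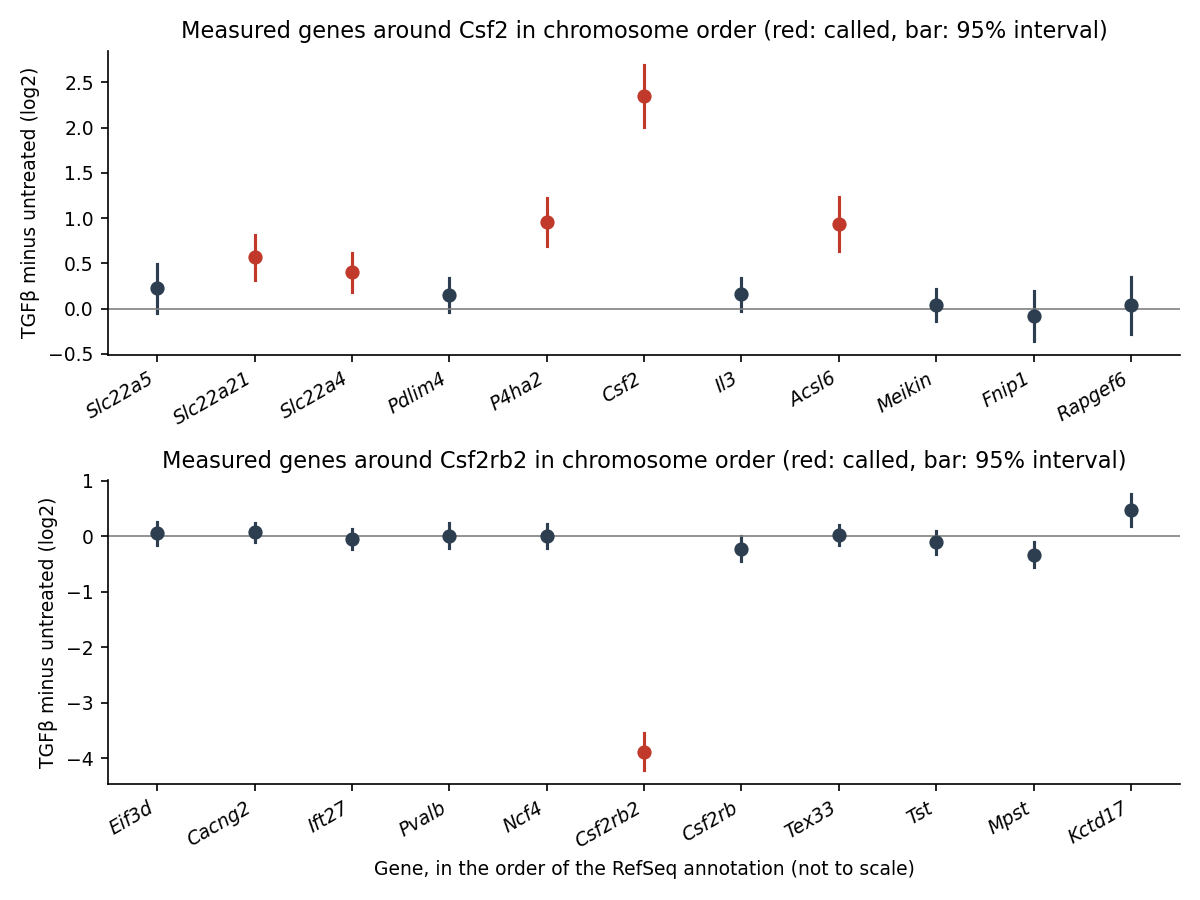
Difference between TGFβ and untreated arrays (log2, vertical axis) of Csf2 and of Csf2rb2 with the 5 measured genes on either side in RefSeq order, with 95% intervals and red for genes called in limma. P4ha2 and Acsl6 near Csf2 lie at 0.96 and 0.94, and no gene beside Csf2rb2 shares its difference of -3.88.

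The label of an epithelial line was set against cell type markers. All 8 epithelial markers lay above 5.98, and Epcam, Cdh1 and Cldn7 were the 3 that fell after TGFβ. This was 37.5% called, against 13.6% of all genes. The mean of the 8 was 11.5 and 11.8 on the TGFβ arrays, against 12.3 and 12.2 on the untreated arrays. Since the receptors are best known from blood cells, myeloid markers were read beside them. Of 17 myeloid markers 1 rose, Cd14 (0.42, adjusted p = 0.0386), and 16 did not pass, or 5.88% called. Their mean was 6.20 and 6.26 on the TGFβ arrays and 6.28 and 6.22 on the untreated arrays. Of the 17, 7 were dim and 10 lay above 5.98 in either group. Ptprc, the leukocyte antigen CD45, was dim, at 5.49 and 5.56 on the TGFβ arrays and 5.57 and 5.49 on the untreated arrays. Cd14 read 9.24 and 9.35 on the TGFβ arrays, against 8.96 and 8.78 on the untreated arrays. Cd68 read 7.60 and 8.33 on the TGFβ arrays, against 9.63 and 8.87 on the untreated arrays. The Cd68 difference was -1.29 (adjusted p = 0.0518). None of 6 measured lymphoid and none of 5 endothelial markers passed in limma, also with no adjustment. Among 7 fibroblast markers Pdgfrb (1.01) and Col1a1 (0.46) rose, or 28.6% called against 13.6% of all genes.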

How the data were processed

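Total RNA of 4 Py2T cultures was amplified, labelled and hybridised to Affymetrix arrays, per the labels' protocols. The deposited log2 values come from RMA as run by the authors in the R package oligo, per the submitters' processing notes. Versions, summary level and genome build are not stated there. Array medians were 6.74 to 6.76, and precision is limited by having 4 arrays. Of 35556 probe sets 21789 carry 1 symbol, 1621 several and 12146 none. The brightest single-symbol probe set stood for each of 19938 genes.

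The groups were compared in limma 3.58.1 (R 4.3.3) by a moderated two-sided test with 2 residual and 3.77 prior degrees of freedom and Benjamini-Hochberg adjustment over all genes, and genes were called at an adjusted p under 0.05. With 2 arrays a group, an exact permutation p is at least 0.333, so that test was not used. The labels say biological replicates and no more, so p-values reflect only how these 4 samples vary. The fit was also run on simulated data, where the only requirement was the right direction of large planted changes.

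The 7 genes, the lists and the tests were chosen with earlier results of these data known. Named were all 7 genes, their probe sets, the 6 partner genes, called genes of each list (at most 6, else the 3 largest each way), adjacent and called neighbours, and the 3 genes most alike to each of Csf2 and Csf2rb2. Jak2, Stat5a, Stat5b and the marker genes were named after their values were seen. Alternatives were median centring, cyclic loess, a filter on the dimmest 25% of genes, the mean of probe sets, robust variances with an intensity trend, the replicate block, every probe set by identifier and each array left out.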

Additional observations from a re-analysis of the deposited data

How the results depend on the processing

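The 7 genes were selected on this comparison, so their calls under other settings are no support for them. They gave 2 or 3 calls under the 12 alternatives, and Csf3 was also lost when every probe set was tested by its identifier. Over all genes 2720 were called, 1536 with every probe set by its identifier and 1535 to 2260 with 1 array left out, which changes the number of features or of samples. The labels give the same replicate numbers to both groups without saying what they share. With the replicate number as a block 1624 genes were called, with 16 list genes (25 without the block) and 2 neighbours (6 without it). Deviations of same-numbered arrays correlated at -0.213 over genes, and with the crossed pairing, chosen after seeing the data, 3640 genes, 35 list genes and 10 neighbours were called. With 1 array left out the list genes gave 17 to 23 calls and the neighbours 2 to 5. Direction turned, always far from the threshold, among the fits with 1 array left out for Il3ra (-0.11 to 0.042), Csf3r (-0.16 to 0.21, and -0.00057 without untreated replicate 1), Ncf4 (-0.069 to 0.088, and -0.038 without TGFβ replicate 2), Eps8l3 (-0.016 to 0.21), Gm7102 (-0.13 to 0.22), Med24 (-0.10 to 0.11), Olfr31 (-0.071 to 0.094) and Tex33 (-0.0087 to 0.060). Osmr, Nfkbia and Socs3 lay near the threshold and also lost their calls with another scaling, variance model or probe-set rule. The cause was not tested. Csf2rb2 after TGFβ and Csf2rb in both groups lay under the 99th percentile of the olfactory and vomeronasal genes (6.79), though neither gene was dim. Background at such values can limit what a difference shows.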
